A study of Saccharomyces cerevisiae with 4 samples.

Results

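The genes described here are 10 genes of protein folding and quality control in the endoplasmic reticulum (ER) of budding yeast. They were chosen by name, with earlier results of these data known. Each was read from the probe set annotated to that gene alone, the brightest by mean where a gene had several. All 10 had such a probe set, out of 5656 genes that did. The RNA came from 4 cultures in rich medium (YPD), with 1 array each: nab3-11 cells at 37 °C, wild type cells at 37 °C, nab3-11 cells at 25 °C and wild type cells at 25 °C, each kept for 2 hours at the stated temperature. nab3-11 is a temperature-sensitive allele of NAB3, which encodes an RNA-binding protein that ends transcription of short non-coding RNAs together with Nrd1. The allele is taken to work at 25 °C and to fail at 37 °C, and the study asked what changes once Nab3 no longer works. The labels give the strains different numbers and do not say whether they differ at other genes.

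New secretory proteins enter the ER unfolded, and a luminal Hsp70, Kar2 (called BiP in animals), binds and releases them as it cycles between ATP and ADP. J-domain proteins start that cycle and nucleotide exchange factors reset it, while oxidoreductases of the Pdi1 family form and rearrange disulfide bonds with oxidising power from Ero1. When unfolded proteins build up, the membrane sensor Ire1 splices the HAC1 messenger, and the Hac1 protein then turns on many genes of folding and of ER-associated degradation. This is the unfolded protein response. Splicing of HAC1 RNA was not analysed here, and whether a HAC1 probe set reads the spliced form, the unspliced form or both is not known.

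Values are array signals scaled so that every array has the same trimmed mean of 150. Signals under a floor of 21.8 were raised to it before any difference was taken, and a fold against such a signal is written "at least". Genes counted as measured in a comparison had a signal above the floor on at least 1 of its arrays, and they were called higher or lower where the signals differed at least 2-fold, a log2 difference of 1. With 1 array in each group there is no replicate error and no test, so each difference compares single cultures, and the number of arrays limits the precision. In whole cultures, a change in some cells and a change in every cell cannot be told apart. Between 56.5% and 64.4% of probe sets lay above the floor on each array. NAB3 itself had signals of 81.0 and 66.7 in nab3-11 and wild type cells at 37 °C and of 72.1 and 66.2 at 25 °C, which does not check a point allele. NRD1, whose RNA Nab3 keeps low, was 8.06-fold higher in nab3-11 than in wild type cells at 37 °C and 2.32-fold higher at 25 °C. For both wild type samples the free-text description speaks of nab3-11 cells at 25 °C, against the title and the strain field. The titles were followed, and every strain difference below depends on them.

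Across the 10 genes, nab3-11 cells had the higher signal at both temperatures. At 37 °C all 10 lay above wild type, HAC1 by its brightest probe set but not by 2 others, by a median log2 difference of 0.58, while the median of all 4770 measured genes was -0.05. At 25 °C all 10 again lay above wild type, by a median of 0.66, while the median of all 4282 genes was 0.01. A difference above 0 was found for 45.7% of genes at 37 °C, for 51.4% at 25 °C and for 25.1% at both. Most of these differences were under 2-fold. At 37 °C, 2 of the 10 genes were called higher, SIL1 and DER1, against 4.78% of all genes, and 0 were called lower, against 3.94%. At 25 °C 0 of the 10 were called in either direction, against 1.17% of genes higher and 0.537% lower. A lower threshold of 1.5-fold was passed at 37 °C by 5 genes, LHS1, SIL1, JEM1, DER1 and HAC1, against 11.8% of all genes. At 25 °C it was passed by 5 genes, LHS1, JEM1, EUG1, ERO1 and DER1, against 6.05%.

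**Figure D1:**
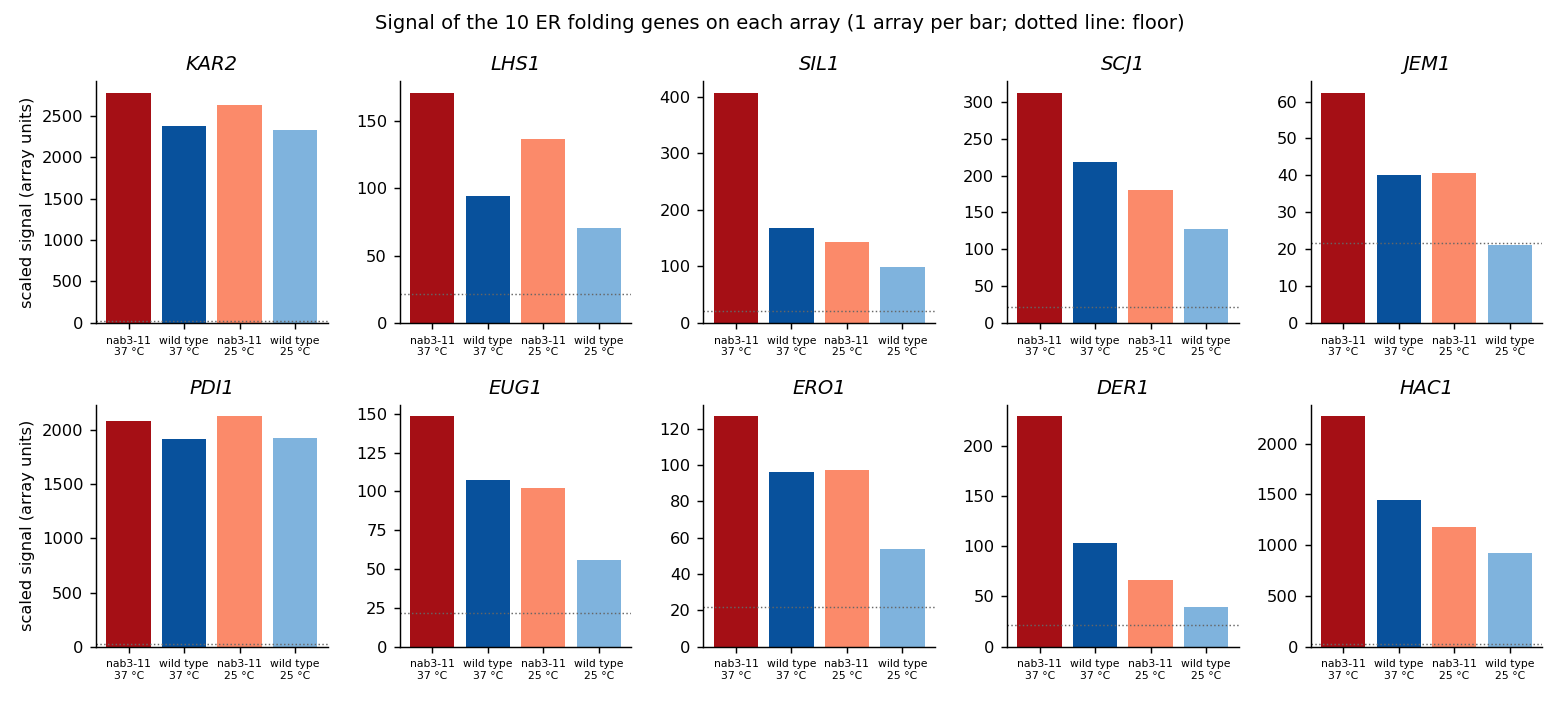
Scaled signal of each of the 10 genes in array units, 1 bar for each array, with nab3-11 bars in reds, wild type bars in blues and the floor of 21.8 as a dotted line. Each panel has its own axis from 0. In 9 panels the nab3-11 37 °C bar is the highest and the wild type 25 °C bar the lowest, and the exception is PDI1.

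The Hsp70 system of the ER lumen split into a nearly level chaperone and cofactors that differed more. KAR2 (YJL034W), the chaperone itself, had signals of 2781 in nab3-11 and 2376 in wild type cells at 37 °C and of 2636 and 2334 at 25 °C. The nab3-11 arrays were the higher at both temperatures, by 1.17-fold and 1.13-fold. LHS1 (YKL073W), an Hsp70-related exchange factor for Kar2, had 171 and 94.6 at 37 °C and 136 and 70.8 at 25 °C in nab3-11 and wild type cells. Both nab3-11 signals lay above both wild type signals, so that LHS1 separated the strains more than the temperatures. Its strain difference was 1.81-fold at 37 °C and 1.93-fold at 25 °C, and that at 25 °C was above 98.6% of genes.

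SIL1 (YOL031C) encodes the other nucleotide exchange factor of Kar2. Its signals were 408 in nab3-11 and 168 in wild type cells at 37 °C and 143 and 98.3 at 25 °C. The nab3-11 37 °C array stood far above the other 3. SIL1 was 2.43-fold higher in nab3-11 than in wild type cells at 37 °C, above 97.3% of genes, and 1.46-fold higher at 25 °C. Among the 10 genes it had the highest strain difference at 37 °C and the highest strain-by-temperature difference, 0.74 on the log2 scale, still under 2-fold.

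The 2 luminal J-domain cochaperones of Kar2 were both higher in nab3-11 cells. SCJ1 (YMR214W) had signals of 313 and 218 in nab3-11 and wild type cells at 37 °C and of 180 and 127 at 25 °C. Its strain difference was 1.43-fold at 37 °C and 1.42-fold at 25 °C, so it was nearly the same at both temperatures. JEM1 (YJL073W), which also acts in nuclear fusion during mating, had 62.4 and 40.2 at 37 °C and 40.7 and 21.1 at 25 °C. The last of these lay below the floor, and JEM1 was 1.55-fold higher in nab3-11 cells at 37 °C and at least 1.87-fold higher at 25 °C.

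Among the genes of disulfide formation, PDI1 (YCL043C) behaved like KAR2. This essential disulfide isomerase gene had signals of 2082 in nab3-11 and 1921 in wild type cells at 37 °C and of 2129 and 1926 at 25 °C. All 4 signals lay within 1.11-fold of each other. EUG1 (YDR518W), a nonessential relative of PDI1, had 148 and 107 at 37 °C and 102 and 55.5 at 25 °C. ERO1 (YML130C), the oxidase that recharges Pdi1, had 127 and 96.3 at 37 °C and 97.4 and 53.5 at 25 °C in nab3-11 and wild type cells. For both genes the wild type 25 °C array was the low one. EUG1 was 1.38-fold higher in nab3-11 cells at 37 °C and 1.84-fold at 25 °C, and ERO1 1.32-fold and 1.82-fold. Their strain-by-temperature differences, -0.41 and -0.47, were the lowest of the 10 genes.

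DER1 (YBR201W) encodes a membrane protein of ER-associated degradation, which helps to move misfolded proteins back to the cytosol. Its signals were 229 in nab3-11 and 103 in wild type cells at 37 °C and 66.4 and 39.1 at 25 °C. Both 37 °C arrays lay above both 25 °C arrays, and within each temperature nab3-11 was the higher. DER1 was 2.22-fold higher in nab3-11 cells at 37 °C and 1.70-fold higher at 25 °C. It spanned 5.87-fold over the arrays, the widest range of the 10 genes. The probe set used has a name of the kind that can match several transcripts. The other DER1 probe set, of the kind that matches 1 transcript, had 48.5 and 28.0 at 37 °C and 14.5 and 11.9 at 25 °C, with both 25 °C signals below the floor. With this other probe set nab3-11 was again the higher at 37 °C, but by 1.73-fold, which is not called, and the strains could not be compared at 25 °C.

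HAC1 (YFL031W) encodes the transcription factor of the response, and its probe sets disagreed. The brightest had signals of 2269 in nab3-11 and 1445 in wild type cells at 37 °C and of 1174 and 918.6 at 25 °C, a strain difference of 1.57-fold at 37 °C and 1.28-fold at 25 °C. The one next in mean signal had 1226 and 1345 at 37 °C and 1395 and 1161 at 25 °C. A probe set of the kind that matches 1 transcript had 671 and 623 at 37 °C and 540 and 367 at 25 °C. A further one, not of that kind, had 402 and 505 at 37 °C and 513 and 357 at 25 °C. All 4 were lowest in wild type cells at 25 °C, but the brightest and the single-transcript one were highest in nab3-11 cells at 37 °C and the other 2 in nab3-11 cells at 25 °C. At 25 °C all 4 of these probe sets were higher in nab3-11 cells, with log2 differences between 0.26 and 0.56. At 37 °C the brightest and the single-transcript one were higher in nab3-11 cells, by 0.65 and 0.11, and the other 2 were lower, at -0.13 and -0.33. The last of the 5, also of the kind that matches 1 transcript, had at most 1.20 on any array, far below the floor. The direction of HAC1 at 37 °C is therefore not settled by these arrays, and which stretch of the RNA each probe set reads was not analysed here.

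**Figure D2:**
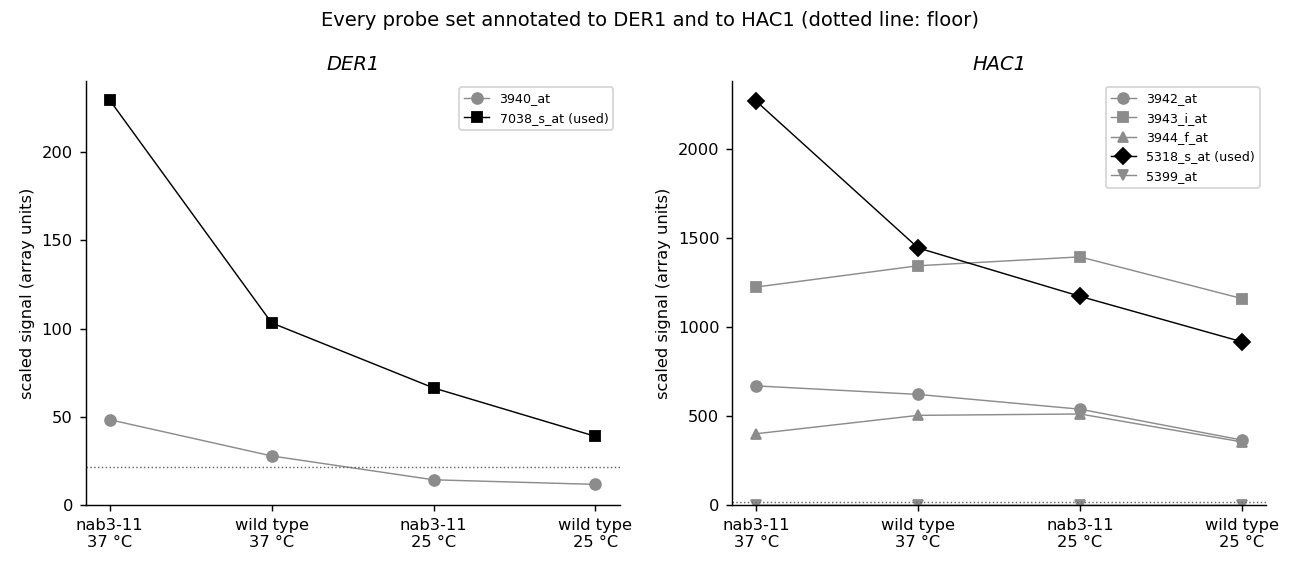
Scaled signal in array units of every probe set annotated to DER1 alone and to HAC1 alone, over the 4 arrays, with lines joining the points of 1 probe set and the probe set used in black. Both DER1 probe sets are highest on the nab3-11 37 °C array and next highest on the wild type 37 °C array, whereas only the brightest HAC1 probe set stands out on the nab3-11 37 °C array, at 2269.

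The bright genes of the group have to be read beside other bright genes. Among the 304 genes with a mean signal over 1000, the median strain difference was -0.13 at 37 °C and -0.21 at 25 °C, and 2.63% and 1.32% of them were more than 1.5-fold higher in nab3-11 cells. Among the 3377 genes with mean signals from 30 to 500 at 37 °C, 13.4% were. Set beside the 217 genes within 2-fold of its own mean signal, KAR2 lay above 91.2% at 37 °C and above 95.4% at 25 °C, where over all genes it lay above 72.0% and 69.4%. PDI1 lay above 80.7% and 88.3% of the 274 genes of similar signal, and above 63.5% and 66.0% of all genes. At 37 °C the other 8 genes lay above 78.5% of genes of similar signal (ERO1) to 96.7% (SIL1 and HAC1). At 25 °C they lay above 90.2% (SCJ1) to 98.6% (JEM1). The rank of HAC1 is that of its brightest probe set, while others, at -0.13 and -0.33, were lower in nab3-11 cells at 37 °C. The differences of KAR2 and PDI1 were thus small in size and high in rank among genes of like brightness.

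**Figure D3:**
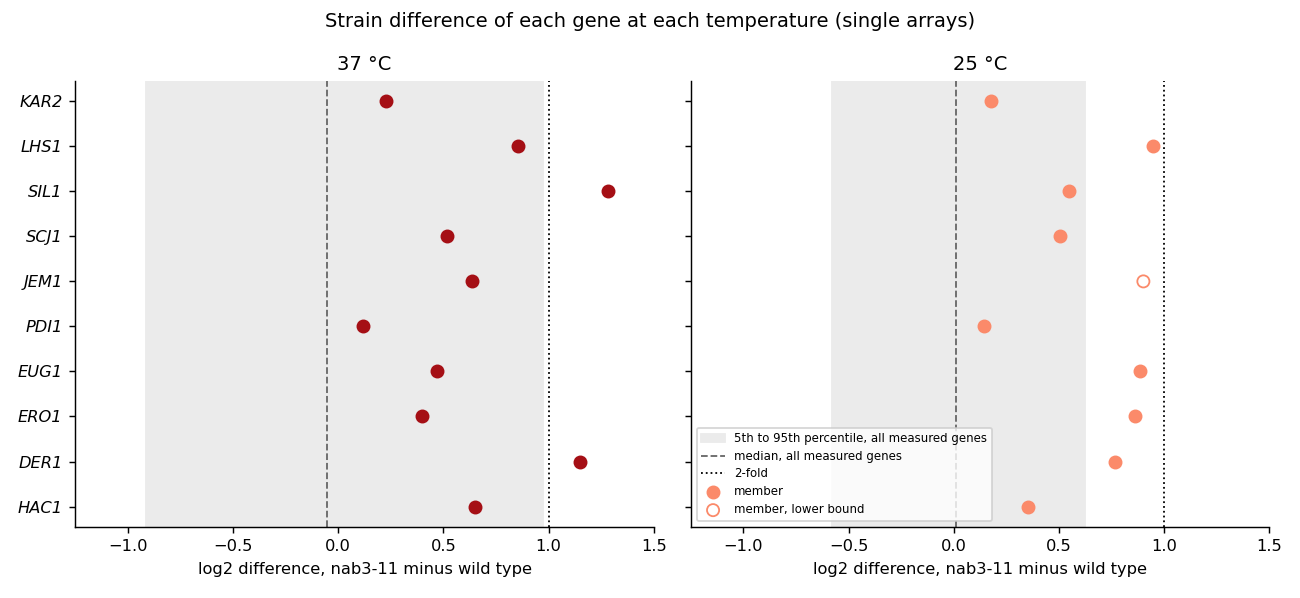
Log2 difference of nab3-11 minus wild type for each gene at 37 °C (left) and 25 °C (right), with the median and the 5th to 95th percentile of all measured genes in grey, the 2-fold line dotted, and an open circle for a lower bound. All points lie right of the median line, and at 25 °C LHS1, JEM1, EUG1, ERO1 and DER1 lie beyond the 95th percentile of 0.62. DER1 and HAC1 are plotted by their brightest probe sets.

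The strain differences at 37 °C and at 25 °C come from separate arrays. In the strain-by-temperature difference, which takes one from the other, 5 of the 10 genes lay above 0, against 46.4% of all genes, and 5 below, with a median of -0.01 beside -0.05 for all 4811 genes. In it 0 of the 10 were called in either direction, against 4.47% of genes higher and 5.45% lower, and SIL1 was the 1 gene past 1.5-fold, against 13.3%. Of the 10 genes, 3 were more than 1.5-fold higher in nab3-11 cells at both temperatures, LHS1, JEM1 and DER1, and 1.93% of all genes were. The strains stood further apart at 37 °C than at 25 °C for SIL1, DER1 and HAC1, and further apart at 25 °C for EUG1, ERO1 and JEM1. LHS1 was at -0.09, and at 0.0042 with quantile normalization, so neither direction can be given for it. For JEM1 the sign turned to 0.51 with a higher floor, at the 55th percentile. For HAC1 this holds for the brightest probe set alone, since in the other 3 above the floor the strain-by-temperature difference lay between -0.85 and -0.40.

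Between 37 °C and 25 °C, DER1 by its brightest probe set differed most of the 10 genes in either strain, KAR2 and PDI1 hardly differed, and several values depended on how the arrays were scaled. In nab3-11 cells SIL1 was 2.84-fold and DER1 3.45-fold higher at 37 °C. These were 2 of 10 called higher, against 15.7% of all genes, and 0 were called lower, against 4.06%. With a common median SIL1 was at 0.99 and no longer called, and with quantiles HAC1 was called too, at 1.32. In wild type cells DER1 was 2.64-fold higher at 37 °C, the 1 gene of 10 called higher, against 11.1% of all genes, and 0 were called lower, against 1.44%. With the other DER1 probe set the log2 differences were at least 1.15 in nab3-11 and at least 0.36 in wild type cells, beside 1.51 for SIL1 and 0.95 for EUG1, which ends the call in wild type cells, and with a common median or quantiles DER1 in wild type cells was at 0.90 and 0.92, also under 2-fold. In both strains 9 of the 10 genes lay above 0, against 62.3% of genes in nab3-11 and 71.3% in wild type cells. Past 1.5-fold were 5 genes in nab3-11 cells, against 30.8% of genes, and 7 in wild type cells, against 29.8%. The medians over the 10 genes were 0.58 in nab3-11 and 0.78 in wild type cells, beside medians of all genes of 0.21 and 0.29. HAC1, by its brightest probe set, was 1.93-fold higher at 37 °C in nab3-11 and 1.57-fold in wild type cells, but 2 of its other probe sets had log2 differences of -0.19 and -0.35 in nab3-11 cells. SCJ1 was 1.73-fold and 1.72-fold higher, EUG1 1.45-fold and 1.93-fold, and ERO1 1.30-fold and 1.80-fold. JEM1 was 1.54-fold higher in nab3-11 cells and at least 1.84-fold in wild type cells. LHS1 was 1.25-fold and 1.34-fold higher, while KAR2 was 1.06-fold and 1.02-fold higher and PDI1 differed by -0.03 and -0.00 on the log2 scale.

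Scaling to a common median moved the median of all genes by -0.47 in either strain, and quantile normalization by -0.29 in nab3-11 and -0.30 in wild type cells. The genes called were 727 higher and 188 lower in nab3-11 cells with the trimmed mean, 330 and 695 with a common median and 436 and 403 with quantiles, and in wild type cells 514 and 67, 195 and 379, and 247 and 137. Relative to the median of all genes, the median of the 10 genes was 0.36, 0.32 and 0.40 higher in nab3-11 cells under the 3 scalings and 0.49, 0.46 and 0.46 higher in wild type cells. With a common median KAR2 was at -0.44 in nab3-11 and -0.48 in wild type cells, and with quantiles at 0.33 and 0.37, so its direction with temperature is not settled. The same holds for PDI1, for LHS1 in both strains and for ERO1 in nab3-11 cells. SIL1, SCJ1, JEM1, EUG1, DER1 and HAC1 lay above 0 in both strains under each of the 3 scalings, HAC1 by its brightest probe set. In nab3-11 cells with a common median, EUG1 and JEM1 were close to level, at 0.02 and 0.10.

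**Figure D4:**
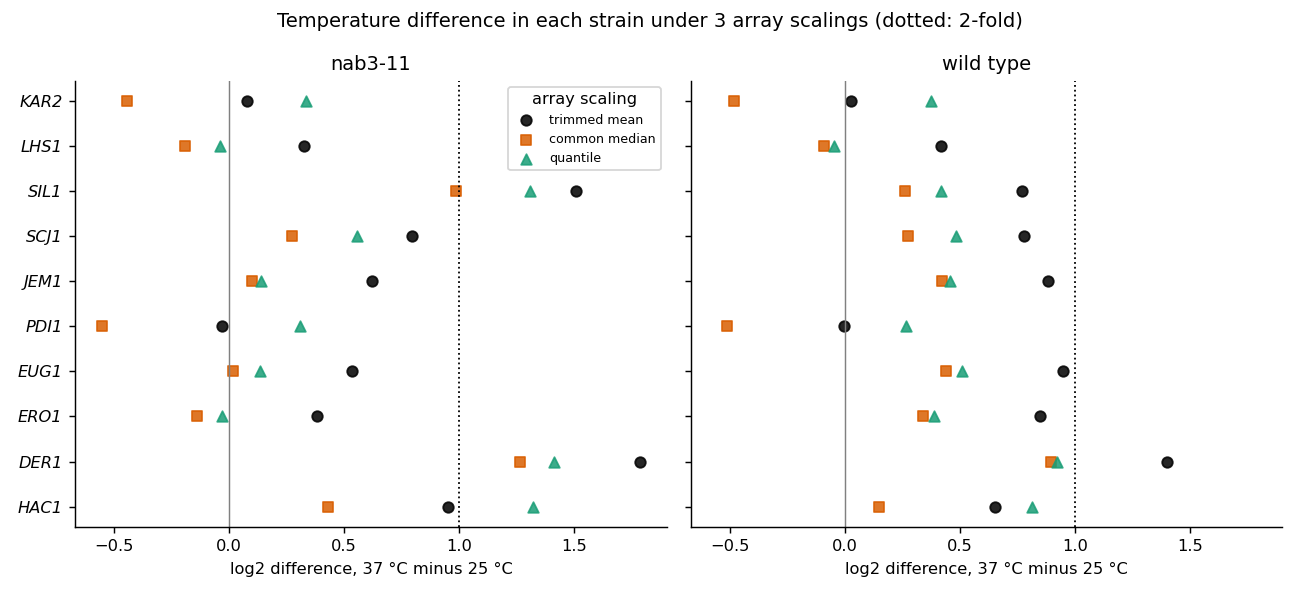
Log2 difference of 37 °C minus 25 °C for each gene in nab3-11 cells (left) and wild type cells (right), with 1 marker for each of 3 array scalings and the 2-fold line dotted. KAR2 and PDI1 lie on either side of 0 depending on the scaling, whereas DER1 stays between 0.90 and 1.79 in both strains. DER1 and HAC1 are plotted by their brightest probe sets, and the other DER1 probe set gave at least 0.36 in wild type cells.

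Over the 4 arrays, 9 of the 10 genes were highest in nab3-11 cells at 37 °C and lowest in wild type cells at 25 °C, a pattern that 19.8% of the 4811 genes measured on any array had, and 18.7% of the 3825 genes above the floor on all arrays. Taken singly, 37.1% of genes were highest in nab3-11 cells at 37 °C and 35% lowest in wild type cells at 25 °C. The exception was PDI1, highest in nab3-11 cells at 25 °C, as 13.5% of genes were, and lowest in wild type cells at 37 °C, as 10.4% were. With a common median 6 genes were highest in nab3-11 cells at 37 °C, against 23.6% of all genes, and 4 in nab3-11 cells at 25 °C, against 28%. In each of the 3 scalings, 0 of the 10 were highest on a wild type array and 0 were lowest on a nab3-11 array. With the trimmed mean, 34% of all genes were highest in wild type cells at 37 °C and 15.3% at 25 °C, and 26.4% were lowest in nab3-11 cells at 37 °C and 28.2% at 25 °C. With a common median these 4 shares were 16.1%, 32.3%, 44% and 16%, and with quantiles 22.9%, 26.4%, 41.1% and 21.3%. With quantiles 8 of the 10 genes were highest in nab3-11 cells at 37 °C, against 28.5% of all genes, and 2 in nab3-11 cells at 25 °C, against 22.2%.

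The profiles of the 9 genes above the floor on every array were compared as log2 signals centred on each gene's own mean, by Euclidean distance over the 4 arrays. Of the 9, SCJ1 and HAC1, the latter by its brightest probe set, were the nearest to their mean profile, at distances of 0.145 and 0.202. DER1 was the farthest, at 0.998. Each of the 9 is part of that mean, which draws it nearer, and the other genes are not. Of 3816 other genes, the 5 nearest to that mean profile were PCS60, RRT2, GAL83, YNL320W and MRX3, at 0.103 to 0.117. PCS60, for example, had signals of 199 and 136 in nab3-11 and wild type cells at 37 °C and of 129 and 90.6 at 25 °C. The 5 nearest to KAR2 were CSG2, AGE2, NAB3, ABP1 and UBX2, at 0.0485 to 0.0718. PDI1 lay at 0.107 from KAR2, and 0.577% of the other genes were nearer, whereas DER1 lay at 1.73. The 4 arrays are few, so many genes share any such profile.

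Other ER genes did not share the pattern to the same degree. Of 53 further genes of ER folding, degradation and translocation, 51 were measured at 37 °C. Their median strain difference was -0.00, with 25 above 0, against 45.7% of all genes. Of them 1 was called higher, against 4.78%, and 0 lower, against 3.94%. At 25 °C the median was 0.11, with 33 of 51 above 0, against 51.4% of all genes. Here 0 were called, against 1.17% of genes higher and 0.537% lower. At both temperatures 20 of the 51 lay above 0, against 25.1% of all genes. More than 1.5-fold higher at both were 0, against 1.93%. Highest in nab3-11 cells at 37 °C and lowest in wild type cells at 25 °C were 13 of the 51 (25.5%), against 19.8%. The difference between these genes and the 10 has no test, and both sets were chosen with earlier results of these data known.

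By role, the disulfide list of 7 genes, which includes PDI1, EUG1 and ERO1, had a median strain difference of 0.12 at 37 °C and 0.69 at 25 °C. MPD2, a further Pdi1 relative, had signals of 175 and 154 in nab3-11 and wild type cells at 37 °C and of 101 and 53.6 at 25 °C. As for EUG1 and ERO1, the wild type 25 °C signal was the low one, and MPD2 was 2.87-fold higher in wild type cells at 37 °C than at 25 °C. The Hsp70 list of 7 genes had medians of 0.52 at 37 °C and 0.58 at 25 °C, but 5 of the 7 are among the 10 genes already described. Of its further genes, ERJ5 had log2 strain differences of 0.19 at 37 °C and 0.91 at 25 °C. The strain-by-temperature difference of ERJ5, which was named after its values were seen, was -0.71. SEC63, a membrane J-domain protein of the translocation pore, was lower in nab3-11 than in wild type cells at 37 °C, unlike the others of the list. Its signals were 39.0 and 65.6 in nab3-11 and wild type cells at 37 °C and 79.3 and 53.0 at 25 °C. Its strain-by-temperature difference was -1.33, and it had a log2 difference of -1.03 in nab3-11 cells at 37 °C against 25 °C.

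The degradation list of 13 genes, with DER1, had a median of 0.22 at 37 °C and 0.08 at 25 °C. DFM1, which encodes a relative of Der1, was its other called gene at 37 °C, with signals of 909 and 409 in nab3-11 and wild type cells at 37 °C and of 519 and 419 at 25 °C. It was 2.22-fold higher in nab3-11 cells at 37 °C and 1.24-fold at 25 °C. The signal in nab3-11 cells at 37 °C thus stood apart from the other 3 for DFM1. NPL4, a cofactor of the Cdc48 segregase, was 2.01-fold higher in wild type cells at 37 °C than at 25 °C, with signals of 74.9 and 37.4. In the translocation list of 12 genes, the median was -0.15 at 37 °C and 0.14 at 25 °C. SSH1, which encodes a second pore subunit, had 392 in nab3-11 cells at 37 °C and 1031 at 25 °C, a log2 difference of -1.39. Wild type cells had 525 and 939, a log2 difference of -0.84, so SSH1 was lower at 37 °C in both strains. Its strain-by-temperature difference was -0.55.

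In the signalling list, HAC1 and PTC2 lay well above the floor, TPT1 less far above it, and IRE1 and TRL1 near or below it. Over its 4 measured genes the median strain difference was -0.26 at 37 °C and -0.04 at 25 °C. At 37 °C 1 of the 4 lay above 0, HAC1 by its brightest probe set, against 45.7% of all genes. At 25 °C 2 did, against 51.4%. TPT1 had signals of 28.5 and 43.0 in nab3-11 and wild type cells at 37 °C and of 31.3 and 30.8 at 25 °C. IRE1, the sensor, had 19.3 and 23.7 in nab3-11 and wild type cells at 37 °C and 17.2 and 23.3 at 25 °C, near the floor on every array. PTC2, a phosphatase gene that acts against Ire1, had 219 and 290 at 37 °C and 320 and 427 at 25 °C, lower in nab3-11 cells at both temperatures, with log2 differences of -0.40 and -0.42. IRE1, PTC2, TPT1 and TRL1 were named after their values were seen. The glycan trimming list had a median of -0.39 at 37 °C and 0.12 at 25 °C over 7 genes, with 0 called. The list of prolyl isomerases and escort factors had 0.08 and -0.06 over 12 genes, with 0 called.

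**Figure D5:**
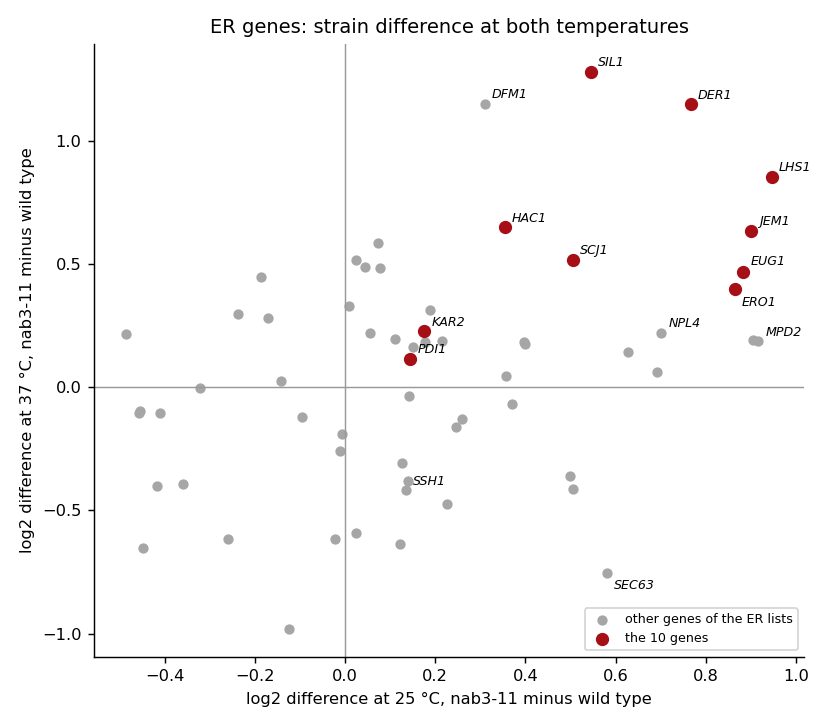
Log2 difference of nab3-11 minus wild type at 25 °C (x axis) and at 37 °C (y axis) for the 10 genes in red and 51 other ER genes in grey, 1 point for each gene. All red points lie above 0 on both axes, and SEC63 lies above 0 at 25 °C and below 0 at 37 °C.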

How the data were processed

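The authors deposited 1 linear intensity for each probe set. The submitters' processing notes name MAS5 and GCOS 1.1.1. The values show that each array had already been scaled to a trimmed mean near 150 (150.1 to 150.2), so a change in the total RNA of a cell would not be seen. RNA was primed with oligo(dT), per the labels' protocols. Detection calls were not used here.

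Each of the 4 arrays was rescaled to a 2% trimmed mean of 150 over 9335 probe sets. The floor of 21.8 is the 40th percentile over non-control probe sets. Of these sets, 6504 had exactly 1 gene in the platform annotation and all were found in the R64 gene table through their gene IDs, for 5656 genes. The labels name no genome build for the array, so coordinates are left out. Promoter and protein sequences were not analysed here. With 1 array per group, no test was run, and groups followed sample titles.

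The members, gene lists and naming rule were chosen with earlier results of these data known. Named genes were all 10 members; up to 3 other genes of each list by size among those at least 2-fold different between strains at 37 °C or between temperatures; the 5 genes nearest to KAR2 and to the members' mean profile; and NAB3 and NRD1. Alternatives were the values as deposited, a common median, quantile normalization, 3 other uses of the floor, 2 other rules for probe sets and 2 other thresholds, plus the other HAC1 probe sets, chosen after seeing the data. The steps were tested on simulated data with known changes. Tools were matplotlib 3.10.9, scipy 1.17.1, pandas 2.3.3, numpy 2.4.6 and Python 3.11.15.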

Additional observations from a re-analysis of the deposited data

How the results depend on the processing

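The medians over the 10 genes moved by less than 1.5-fold under every alternative run, but some of these moves were large beside the medians themselves. With a common median, the median between temperatures fell from 0.58 to 0.06 in nab3-11 cells. In wild type cells it fell from 0.78 to 0.27. For nab3-11 against wild type cells, 9 of the 10 genes kept a difference above 0 at both temperatures wherever they were measured, and HAC1 at 37 °C was the exception, at -0.13 and -0.33 with 2 of its other probe sets. Counts of called genes are small and moved more. With unique probe sets only, 1 gene was called higher at 37 °C between strains, against 3.88% of all genes. In wild type cells 0 were called higher between temperatures, against 11.2%. With a common median, 1 gene was called higher at 37 °C than at 25 °C in nab3-11 cells, against 7.19% of all genes. In wild type cells 0 were, against 4.25%. With quantile normalization 3 were called in nab3-11 cells, HAC1 being the one gained, against 9.52%, and 0 in wild type cells, against 5.37%. At a 3-fold threshold 0 genes were called between strains at 37 °C, against 1.47% of all genes called higher. Between temperatures 1 was called in nab3-11 cells, against 6.37%, and 0 in wild type cells, against 3.14%. At a 1.5-fold threshold 5 genes were called higher between strains at 37 °C, against 11.8% of all genes, and 5 at 25 °C, against 6.05%. Between temperatures 5 were called in nab3-11 cells, against 30.8%, and 7 in wild type cells, against 29.8%. In the strain-by-temperature difference 1 was, against 13.3%. The thresholds account for their own counts by construction, and the cause of the other moves was not tested. Of 412 recomputed differences of single genes, 14 moved by more than 1.5-fold, 23 changed sign and 0 of those called did. Many of the 412 could hardly move, so these counts do not measure how robust the differences are. For 8 of the 10 genes there is 1 probe set, and the 2 other rules for probe sets leave them unchanged. The values as deposited were already scaled almost alike, and another floor percentile alters only signals below the floor. JEM1 with a floor at the 55th percentile had a strain-by-temperature difference of 0.51. No paired analysis was possible because each group has 1 array and the labels give no replicate numbers. No array can be left out of a comparison without ending it. Low signals limit JEM1 and the dimmer DER1 probe set.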

Other observations

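The nearest non-overlapping genes on either side of the 10 genes in the R64 annotation were 20 protein-coding genes, with 0 of another type. Of these, 17 were measured between strains at 37 °C: 11 lay above 0, against 45.7% of all genes, and 6 below. Their median log2 difference was 0.19, with a range of -0.58 (HCA4, downstream of KAR2) to 1.54. Among the 17, 2 were called higher, against 4.78% of all genes, and 0 lower, against 3.94%. At 25 °C 15 were measured, 12 above 0, against 51.4% of all genes, and 3 below, with a median of 0.33. Here 0 were called, against 1.17% of all genes higher and 0.537% lower. Those called at 37 °C were TAD2 and AGX1. TAD2, from which KAR2 is read away, encodes a subunit of the tRNA adenosine deaminase. TAD2 had signals of 229 in nab3-11 and 78.7 in wild type cells at 37 °C and of 115 and 62.0 at 25 °C, with log2 strain differences of 1.54 and 0.89, where those of KAR2 were 0.23 and 0.18. AGX1, which lies downstream of HAC1 on the same strand and encodes a glyoxylate aminotransferase, had 296 and 119 at 37 °C and 55.4 and 34.7 at 25 °C. Its log2 strain difference was 1.31 at 37 °C, and it was 2.41 higher on the log2 scale in nab3-11 cells at 37 °C than at 25 °C. YBR200W-A, the short reading frame upstream of DER1 on the same strand, had 42.3 in nab3-11 and 7.69 in wild type cells at 37 °C and was below the floor on the 3 arrays other than nab3-11 at 37 °C. These neighbours were named after their values were seen, and whether their RNA reaches the probe sets of the 10 genes was not tested.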
